A study of Mus musculus with 6 samples.

Results

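The epidermal differentiation complex is a cluster of genes for proteins of the outer epidermis. It was taken here as the 60 protein-coding genes on chromosome 3, of 54532 genes in all, whose names start with Lce, Sprr or S100a, or are Flg, Flg2, Hrnr, Rptn, Tchh, Tchhl1, Ivl, Lor, Kprp or Crnn. They lay between positions 90511034 and 93564643 (mm10) and comprised 14 S100a genes, 7 S100-fused-type genes, 15 Sprr genes, 21 Lce genes, and the 3 genes Ivl, Lor and Kprp. Sprr2j-ps carries the suffix of a pseudogene but is listed as protein-coding in the table and was kept, while Sprr2g and Sprr2c-ps are listed as pseudogenes there and were left out. Of the 60 genes, 47 passed the filter on low counts and were tested.

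RNA was measured in ear skin of mice at 3 months of age. The control group (Ufl1f/+ or Ufl1f/f, no Cre) and the conditional knockout group (cKO, Ufl1f/f KRT14Cre/+) held 3 libraries each. Which controls were Ufl1f/+ and which Ufl1f/f is not stated, so a part of genotype in the spread of the controls cannot be told apart. Ufl1 encodes the E3 ligase of the ubiquitin-like modifier UFM1, and both groups carried at least 1 floxed Ufl1 allele. The keratin 14 promoter is active in basal keratinocytes, from which the upper layers of the epidermis arise. No control carried Cre, so an effect of Cre cannot be told apart from that of the loss of Ufl1. Separate animals are not stated for the libraries, and p-values then reflect only how these samples varied, which may be technical.

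Keratinocytes that leave the basal layer build a protein shell, the cornified envelope, beneath their plasma membrane. Involucrin (Ivl) is laid down early, and loricrin (Lor), the small proline-rich proteins (Sprr) and the late cornified envelope proteins (Lce) are then cross-linked to it by transglutaminases. Filaggrin (Flg) is stored in keratohyalin granules and bundles keratin filaments, and its S100-fused-type relatives share its fused S100 domain. S100a proteins are small calcium-binding proteins with roles inside and outside the cell. Sprr, Lce3, S100a8 and S100a9 genes are known for their induction in wounded and inflamed epidermis, whereas Lor, Flg and Lce1 genes belong to undisturbed terminal differentiation.

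Levels are given as CPM, counts scaled to library size by the TMM method of edgeR, and total counts ran from 17256339 to 20776539. Ufl1 itself had control values of 57.8, 46.9 and 46.0 CPM and cKO values of 34.8, 35.6 and 38.7 CPM (replicates 1 to 3, an order kept throughout), so every cKO library was below every control (log2 fold change -0.47, SE 0.14; adjusted p = 0.778, edgeR quasi-likelihood test). Control 2 and cKO 1 stood apart in epidermal genes. The 4 keratins of wounded epidermis (Krt6a, Krt6b, Krt16 and Krt17) summed to 171.2, 227.8 and 208.8 CPM in the controls and to 1414.8, 385.4 and 397.9 CPM in the cKO. For each of the 4 every cKO library was above every control, the unadjusted p of edgeR was under 0.05 for all 4, and DESeq2 called 1. Both cKO 2 and cKO 3 were thus above the controls, and cKO 1 far above them. The 6 basal keratinocyte markers summed to 11328 CPM in control 2, to 3222.1 and 5091.6 CPM in the other two controls and to 5269.7 to 7025.5 CPM in the cKO, and the 6 fibroblast markers to 9640 CPM in control 2 and 15537 to 25331 CPM elsewhere. The 7 suprabasal markers, among them Krt1 and Krt10, ranged from 8519 CPM in control 1 to 15936 CPM in control 2, with the cKO at 11341 to 14969 CPM. The summed markers of 2 other cell types separated the groups: the 5 melanocyte markers summed to 41.4 to 58.5 CPM in the controls and 161.9 to 245.9 CPM in the cKO, and the 6 sebocyte markers to 11562 to 14409 CPM and 6408.7 to 9873.8 CPM. Each of the 5 melanocyte markers had every cKO library above every control. Of the 6 sebocyte markers only 2 had every cKO library below every control, and 1 had every cKO library above. The part of these cell types in the results was not tested. In whole skin, fewer cells of a type and less RNA per cell cannot be told apart.

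No member of the complex was called in the comparison of cKO and control. At an adjusted p under 0.05, 0 of the 47 members were higher and 0 lower in edgeR, where 0.0115% and 0.00577% of all 17318 genes tested were called higher and lower. DESeq2 called 0 members too, against 0.387% of all genes higher and 0.139% lower, and so did limma-voom with quality weights (0.167% and 0.0577%). The authors' deposited table calls 0.204% of genes higher and 0.0737% lower, and the lowest adjusted p of a member in it was 0.125, for Sprr1b. At an unadjusted p under 0.05 in edgeR, 7 members were higher (Sprr1b, Sprr2a1, Sprr2a3, Sprr2d, Sprr2h, Lce3d and Flg) and 0 lower, where 3.38% of all genes were higher and 1.95% lower. Of the 47 members 34 had a positive log2 fold change, as did 47.8% of all genes, and the median was 0.19 beside -0.01 over all genes. Without cKO 1 the 7 became 2, Sprr2a1 and Sprr1b, where 1.86% of all genes were higher with such a p. In that fit 24 of 48 members tested were positive. Without control 2 they became 10, of which 1, Flg, was among the 7, where 4.36% of all genes were higher. There 46 of 51 were positive. Without control 3 they became 3 (Sprr1b, Sprr2a2 and S100a4), where 2.48% of all genes were higher. Without cKO 2, cKO 3 and control 1 they became 8, 9 and 9, where 3.88%, 2.24% and 5.2% of all genes were higher. Without control 1, Lce1m was lower with such a p, where 5.32% of all genes were. All cKO libraries lay above all controls for 5 members (Sprr1b, Sprr2h, S100a4, S100a10 and S100a13) and below them for 0, where this held for 5.73% and 4.80% of all genes.

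The Sprr and Lce3 genes had the highest subfamily medians. The median log2 fold change was 1.83 over 8 Sprr genes tested, with a range of 0.70 to 4.61, and 1.47 over 3 Lce3 genes. It was 0.42 over 6 S100-fused-type genes, 0.20 over 12 S100a genes, 0.08 over Ivl, Lor and Kprp, and -0.07 over 14 Lce1 genes. The Sprr and Lce3 medians rested in large part on cKO 1. Without it they were 0.59 and 0.46, while that of the S100-fused-type genes was -0.13 and that of the Lce1 genes -0.15. The filter was applied anew in that fit, so the genes behind a median can differ. Lce3a, Lce3c and Lce3d, the Lce3 genes tested with all libraries, were at 0.31, -0.14 and 1.37 without cKO 1. In 10 of the 47 members (21.3%) cKO 1 was at least 2-fold above every other library, a pattern seen in 0.508% of all genes tested. These 10 were Sprr1a, Sprr1b, Sprr2d, Sprr2h, Sprr2i, S100a7a, S100a8, S100a9, Lce3a and Rptn, so they came from 4 subfamilies and included no Lce1 gene. The subfamily medians have no test, since members share libraries and, in part, sequence.

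**Figure D1:**
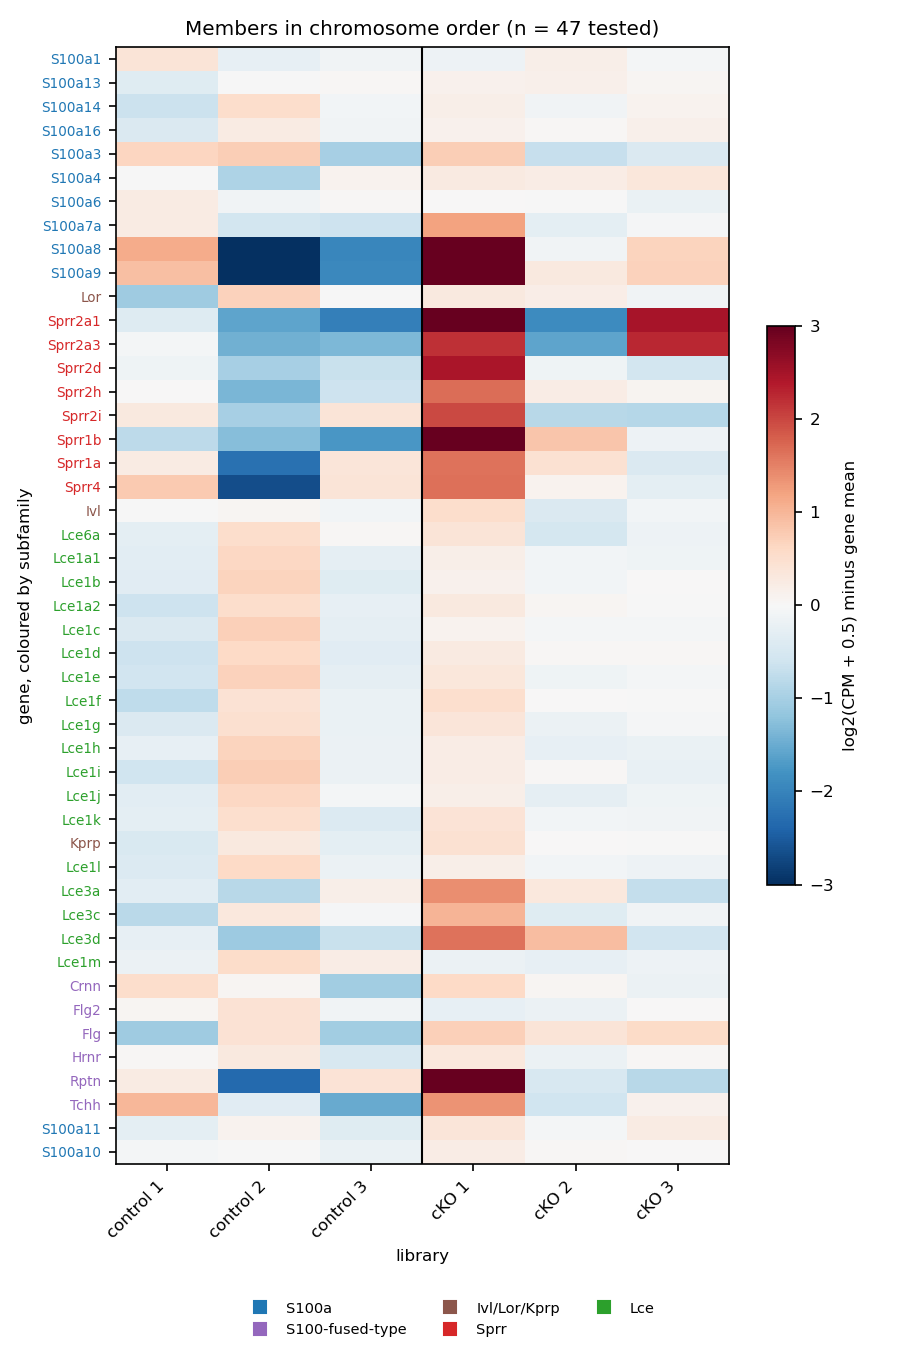
Levels of the 47 tested members in each library, as log2(CPM + 0.5) relative to the average of the 6 libraries for that gene, with genes in chromosome order (rows, coloured by subfamily) and libraries in columns; colours are capped at -3 and 3. Sprr, Lce3, S100a8, S100a9 and Rptn are highest in cKO 1, apart from Sprr2a3, which is as high in cKO 3 (6.69 CPM) as in cKO 1 (6.34 CPM), while 13 of 14 Lce1 genes are highest in control 2.

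**Figure D2:**
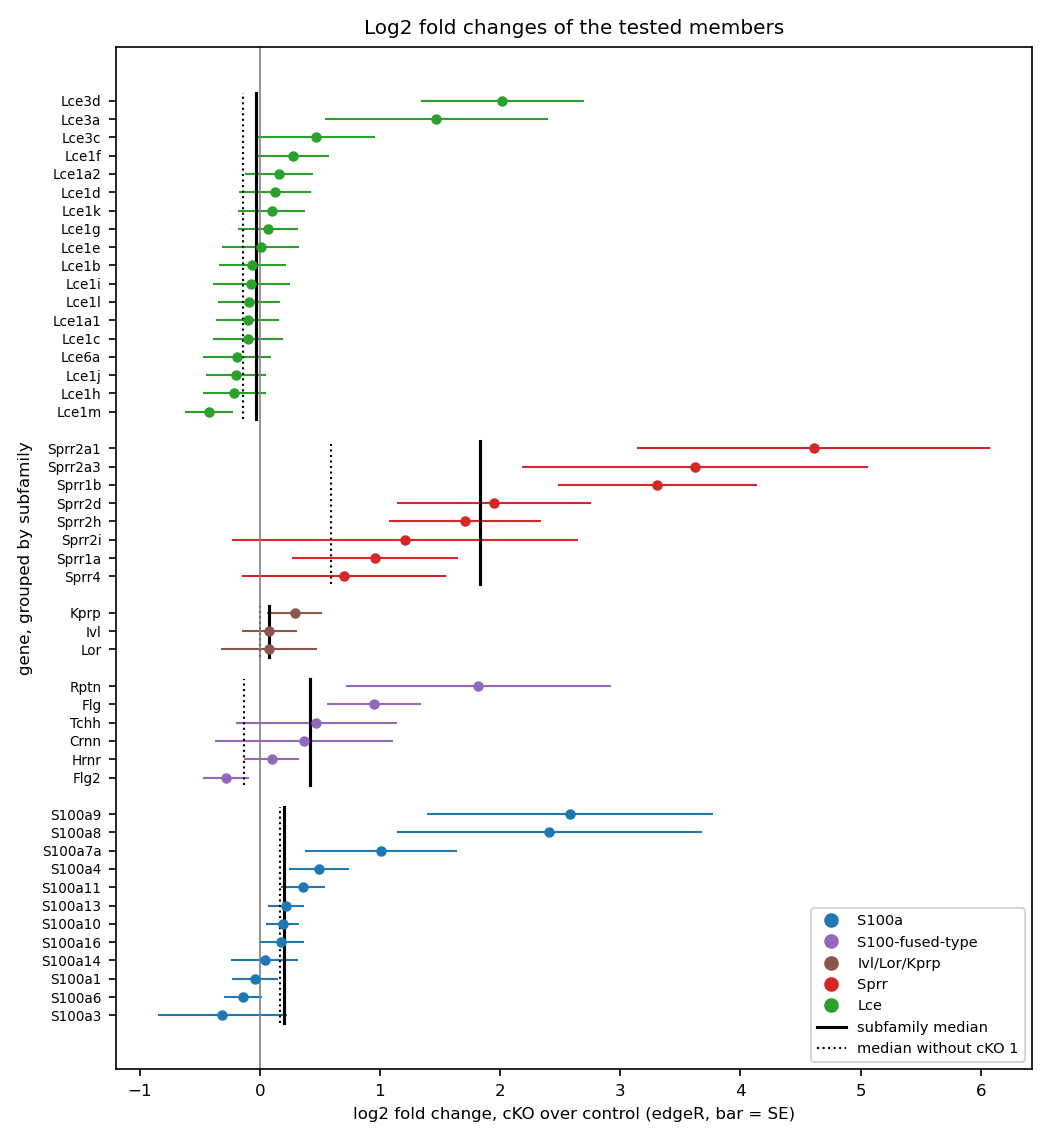
Log2 fold change of cKO over control for each tested member (point, edgeR; bar, SE), grouped by subfamily. Solid lines mark the subfamily medians with all libraries (Sprr 1.83, Lce -0.03) and dotted lines those without cKO 1 (Sprr 0.59, Lce -0.14).

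The Sprr genes, whose products are short proline-rich cross-linking partners of loricrin and involucrin, held the 3 largest log2 fold changes of the 47 tested members (Sprr2a1, Sprr2a3 and Sprr1b). Sprr1b (ENSMUSG00000048455, chromosome 3, 92436809 to 92438789) had 5.12, 3.50 and 2.36 CPM in the controls and 83.7, 16.7 and 8.16 CPM in the cKO. All cKO libraries were thus above all controls, and they differed among themselves by more than the controls did. In edgeR its log2 fold change of 3.31 (SE 0.83) had an adjusted p of 0.644 (0.00413 unadjusted), and it was 1.77 without cKO 1. By exact permutation p was 0.1, the lowest value possible with 3 libraries a group.

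Sprr1a, the close relative of Sprr1b and the Sprr gene with the highest level per length (a mean of 137.3 FPKM, scaled by gene length and depth), was at 100.1, 17.7 and 109.0 CPM in the controls and at 262.4, 116.2 and 62.8 CPM in the cKO. The groups overlapped, since cKO 3 lay below controls 1 and 3. Its log2 fold change of 0.96 (SE 0.69) became 0.25 without cKO 1. Sprr4, at the end of the Sprr block, was at 13.8, 0.824 and 10.3 CPM in the controls and at 25.7, 8.48 and 6.33 CPM in the cKO, and its log2 fold change of 0.70 (SE 0.85) became -0.16 without cKO 1. Control 2 was the lowest library for both genes.

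Within the Sprr2 genes 2 patterns were seen, and the tested gene Sprr2i stood apart from both. Sprr2i had 12, 0 and 17 counts in the controls and 62, 1 and 1 in the cKO, so controls 1 and 3 lay above cKO 2 and cKO 3. Its log2 fold change was 1.21 (SE 1.44) in edgeR and -0.16 in limma-voom. Sprr2d was at 3.99, 1.96 and 2.59 CPM in the controls and at 26.0, 3.99 and 2.82 CPM in the cKO (log2 fold change 1.95, SE 0.81; 0.26 without cKO 1). Sprr2h was at 2.26, 0.566 and 1.27 CPM in the controls and at 8.24, 2.72 and 2.41 CPM in the cKO, without overlap (1.71, SE 0.63; 0.91 without cKO 1). In both genes cKO 1 was far above the other two cKO libraries.

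Sprr2a1 was instead high in cKO 1 and cKO 3, with 435 and 232 counts, next to 2 counts in cKO 2 and 21, 5 and 1 counts in the controls. Sprr2a3 had 114 and 128 counts in cKO 1 and cKO 3, 0 in cKO 2, and 16, 1 and 2 in the controls. Their log2 fold changes were 4.61 (SE 1.47) and 3.62 (SE 1.44), with adjusted p values of 0.826 and 0.894 in edgeR. Sprr2a2 did not pass the filter with all libraries, with 58, 0 and 37 counts in cKO 1 to 3 and 0 in every control. The 3 Sprr2a genes are near copies. In GENCODE M21 transcripts 96.3% of the 50-base words of Sprr2a1, 96.5% of those of Sprr2a2 and 61.1% of those of Sprr2a3 also occur in another member, and the models of Sprr2a1 and Sprr2a2 overlap on the same strand. Their separate values are therefore uncertain, whereas Sprr1a, Sprr1b, Sprr4 and Sprr2h shared 0% and Sprr2d 4.27%.

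The AP-1 letters stood before the start of most Sprr genes and of no Lce gene with a promoter in the table. RefSeq promoters (GRCm38.p6, the build of the table) were matched by symbol for 54 of the 60 members, with 58 promoters in all, and the 250 bases before each start were searched on both strands for the AP-1 motif TGAGTCA and the TATA box TATAAA. AP-1, the family of Jun and Fos factors, binds the first, and the second positions the polymerase. The AP-1 letters were found in 8 of 14 Sprr promoters, in 0 of 20 Lce promoters, in both promoters of the Ivl, Lor and Kprp group that the table held (Ivl and Lor), in 0 of 7 S100-fused-type and in 1 of 15 S100a promoters (S100a11), beside 4.46% of all 32851 promoters. The TATA letters were in 10 of 14 Sprr promoters and 4 of 20 Lce promoters, beside 12.4% of all promoters. In the Sprr2 genes the pair kept its spacing. All 7 Sprr2 promoters with the AP-1 letters had them on the gene's strand, starting 193 to 198 bases before the start site. The same 7 had the TATA letters 29 bases before it. Sprr2k held another AP-1 match at 182 bases, on the opposite strand. The 3 Sprr2a promoters held neither the AP-1 nor the TATA letters. KLF (GGGTGTG) was in 2 of the 58, ETS (GAGGAAG) in 9, and C/EBP (TTGCGCA) and GRHL (ACCGGTT) in 0, beside 6.93%, 10.6%, 1.69% and 0.831% of all promoters. A match is a description of letters and shows no binding.

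The promoters of 4 Sprr genes are shown with those of Lor and Flg, which differed less between libraries, so that the shared layout can be read. Each is the 250 bases before the start site, 5′ to 3′ on the gene's strand, with the AP-1 and TATA letters in capitals. Sprr2d (chr3:92338890-92339139, plus strand) and Sprr2h (chr3:92385435-92385684, plus strand) have both at matching places. Sprr1a (chr3:92485882-92486131, minus strand) has AP-1 letters at 146 and 116 bases before the start. Sprr1b (chr3:92438780-92439029, minus strand) has only the TATA letters. Lor (chr3:92083143-92083392, minus strand) has both, the AP-1 letters 48 bases before the start, and Flg (chr3:93273296-93273545, plus strand) has TATA letters alone.
Sprr2d: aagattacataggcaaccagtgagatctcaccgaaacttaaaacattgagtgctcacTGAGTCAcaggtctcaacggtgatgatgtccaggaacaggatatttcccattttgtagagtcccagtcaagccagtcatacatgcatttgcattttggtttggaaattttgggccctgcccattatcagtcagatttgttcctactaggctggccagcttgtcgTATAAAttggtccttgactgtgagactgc
Sprr2h: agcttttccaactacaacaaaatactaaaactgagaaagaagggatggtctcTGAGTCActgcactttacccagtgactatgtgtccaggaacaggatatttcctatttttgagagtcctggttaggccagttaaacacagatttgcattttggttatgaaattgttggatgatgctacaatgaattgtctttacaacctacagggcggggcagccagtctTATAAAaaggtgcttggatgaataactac
Sprr1a: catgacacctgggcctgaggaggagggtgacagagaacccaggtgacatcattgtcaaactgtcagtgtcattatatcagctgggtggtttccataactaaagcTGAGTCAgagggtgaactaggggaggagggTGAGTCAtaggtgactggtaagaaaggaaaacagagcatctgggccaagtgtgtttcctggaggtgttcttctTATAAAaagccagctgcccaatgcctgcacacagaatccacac
Sprr1b: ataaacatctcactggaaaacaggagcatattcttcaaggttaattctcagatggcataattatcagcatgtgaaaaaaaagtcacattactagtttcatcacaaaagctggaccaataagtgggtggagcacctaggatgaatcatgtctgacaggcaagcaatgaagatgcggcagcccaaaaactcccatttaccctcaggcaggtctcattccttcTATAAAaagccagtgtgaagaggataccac
Lor: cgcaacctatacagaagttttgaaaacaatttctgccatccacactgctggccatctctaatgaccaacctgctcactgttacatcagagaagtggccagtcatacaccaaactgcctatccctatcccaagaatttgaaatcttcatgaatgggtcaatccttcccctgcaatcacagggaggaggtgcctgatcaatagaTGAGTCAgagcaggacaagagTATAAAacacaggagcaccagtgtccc
Flg: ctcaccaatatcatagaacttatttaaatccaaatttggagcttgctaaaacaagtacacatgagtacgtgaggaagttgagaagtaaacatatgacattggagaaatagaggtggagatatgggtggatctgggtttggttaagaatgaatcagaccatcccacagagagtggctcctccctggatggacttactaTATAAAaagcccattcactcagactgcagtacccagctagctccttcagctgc

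The Lce genes split into the Lce1 genes, among the most abundant of the complex, and the weakly transcribed Lce3 genes. Lce1 transcripts together made up 1606, 3225 and 1918 CPM in the controls and 2384, 1977 and 2003 CPM in the cKO. The cKO values lay inside the range of the controls. Control 2 was the highest library for 13 of the 14 genes and control 1 the lowest for 10. Lce1a1, one of the most abundant, was at 213.6, 410.2 and 220.6 CPM in the controls and at 299.1, 248.9 and 241.8 CPM in the cKO, a log2 fold change of -0.10 (SE 0.26) that became 0.28 without control 2. Lce1c and Lce1b had log2 fold changes of -0.10 (SE 0.29) and -0.06 (SE 0.28), and these were 0.35 and 0.37 without control 2. The median of the 14 genes moved from -0.07 to 0.37 in the same way. It was also above 0 without cKO 3 (0.01) and in limma-voom (0.25), so the Lce1 genes had no stable direction. Between 9.12% and 25.4% of the 50-base words of the Lce1 genes other than Lce1m occur in another member, which makes the split of reads between them uncertain.

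Lce1m, which lies apart from the other Lce1 genes at the far side of the Lce3 genes (93017810 to 93019060) and shares none of its words with another member, had the lowest log2 fold change of the 47 tested members. It was at 348.6, 576.5 and 461.7 CPM in the controls and at 348.4, 332.5 and 353.8 CPM in the cKO. The cKO libraries were close together at the level of the lowest control. Its log2 fold change of -0.42 (SE 0.20; adjusted p = 0.949, edgeR) ran from -0.59 without control 1 to -0.23 without control 2.

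Of the 6 Lce3 genes, induced in disrupted epidermis, 3 passed the filter. Lce3d was at 1.25, 0.463 and 0.802 CPM in the controls and at 5.90, 3.44 and 0.889 CPM in the cKO. Both cKO 1 and cKO 2 were above all controls and cKO 3 lay within them (log2 fold change 2.02, SE 0.68; adjusted p = 0.849, edgeR). Lce3a had a log2 fold change of 1.47 (SE 0.93; 0.31 without cKO 1) and Lce3c one of 0.47 (SE 0.49; -0.14 without cKO 1). Between 12.1% and 49.3% of the words of the Lce3 genes occur in another member. Lce6a, the single gene of its class, was at 41.4 to 73.6 CPM in the controls and at 34.8 to 65.9 CPM in the cKO.

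Loricrin, the main protein of the cornified envelope, was the most abundant member per length, with a mean of 1112.8 FPKM ahead of Lce1m at 422.3 FPKM and S100a11 at 418.2 FPKM. Lor was at 895.5, 3042.6 and 1870.3 CPM in the controls and at 2284.3, 2139.7 and 1736.2 CPM in the cKO. The controls spanned a 3.40-fold range that enclosed all cKO libraries. The log2 fold change was 0.08 (SE 0.40) and ran from -0.26 without control 1 to 0.57 without control 2. Ivl, the early scaffold of the envelope, was at 53.3, 55.3 and 50.4 CPM in the controls and at 77.8, 39.4 and 50.8 CPM in the cKO (0.08, SE 0.23; -0.23 without cKO 1). Its controls were close together and the cKO libraries lay on both sides of them. Kprp, a proline-rich keratinocyte protein, was at 222.3, 376.6 and 251.1 CPM and at 420.2, 311.9 and 304.7 CPM (0.29, SE 0.23).

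In the edgeR test used above, filaggrin was the S100-fused-type gene with an unadjusted p under 0.05. In edgeR it had no such p under total count scaling, without the filter, or without any single library other than control 2. In limma-voom Flg, Hrnr and Crnn had unadjusted p values of 0.000312, 0.0304 and 0.00691, and adjusted ones of 0.0725, 0.279 and 0.187. In that fit 8.63% of all genes were higher with an unadjusted p under 0.05. The log2 fold change of Crnn, a gene with few counts, was 2.46 there and 0.37 in edgeR. Flg (93273523 to 93293686), whose product bundles keratin filaments and is broken down into the moisturizing factors of the horny layer, was at 95.4, 269.6 and 97.6 CPM in the controls and at 330.7, 261.6 and 300.6 CPM in the cKO. Only control 2 reached the cKO range. In edgeR its log2 fold change of 0.95 (SE 0.39) had an adjusted p of 0.913 (0.0415 unadjusted). Without control 2 it was 1.63 (SE 0.15) with an adjusted p of 0.0232 in edgeR, where 0.0226% of the 17718 genes tested were called. Without control 1 it was 0.69 and without control 3 it was 0.71, with adjusted p values of 0.559 and 0.997 in edgeR.

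Filaggrin was also set against its neighbours in the same libraries, a comparison chosen after its values were seen. Flg2, a filaggrin relative in the same granules, was at 601.9, 783.6 and 541.0 CPM in the controls and at 490.7, 515.9 and 578.4 CPM in the cKO (-0.28, SE 0.19). The ratio of Flg to Flg2 CPM was 0.158, 0.344 and 0.180 in the controls and 0.674, 0.507 and 0.520 in the cKO. All cKO libraries were above all controls, including control 2, with means of 0.228 ± 0.101 and 0.567 ± 0.0929 (SD, n = 3 each), a 2.49-fold difference (exact permutation p = 0.1, the smallest possible). Hrnr, hornerin, another filaggrin relative, was at 558.1, 668.3 and 391.2 CPM and at 681.4, 486.2 and 562.5 CPM (0.10, SE 0.23). The ratio of Flg to Hrnr was 0.171, 0.403 and 0.249 in the controls and 0.485, 0.538 and 0.534 in the cKO. That of Flg to Lor was 0.106, 0.0886 and 0.0522 in the controls and 0.145, 0.122 and 0.173 in the cKO. Each of these 3 ratios separated the groups, as did that of Hrnr to Flg2 at a smaller size (0.723 to 0.927 against 0.943 to 1.39). The ratio of Lor to Flg2 did not, at 1.49, 3.88 and 3.46 in the controls and 4.66, 4.15 and 3.0 in the cKO (exact permutation p = 0.4). Of 7 ratios computed between members 4 separated the groups, and their p-values were not adjusted. Flg is in 3 of the 4, so these are not independent, and no share over all genes is given beside them. Since Flg was picked with its higher cKO values known, its ratios describe those values and are no separate support for them.

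**Figure D3:**
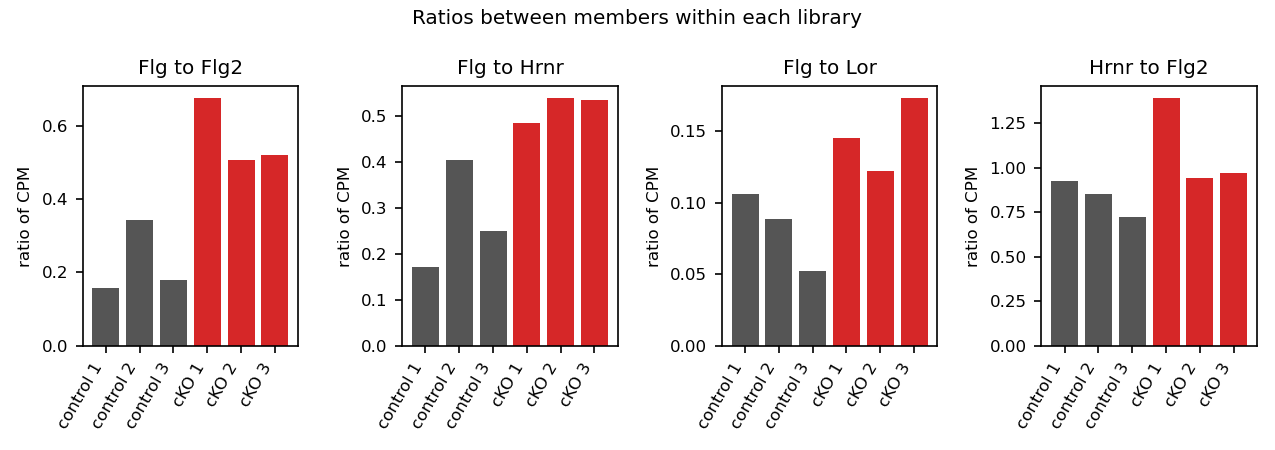
Ratio of CPM between 2 members within each library (bars, 1 per library; grey, control; red, cKO). Flg to Flg2 was 0.158 to 0.344 in the controls and 0.507 to 0.674 in the cKO, and the controls also lay below the cKO for Flg to Hrnr, Flg to Lor and, more narrowly, Hrnr to Flg2.

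The same was done for all members by dividing by the summed CPM of the 13 Lce1 genes other than Lce1m, a scaling added after the data were seen. Of the 34 tested members outside that sum, 3 had all cKO libraries above all controls (Flg, Sprr1b and Kprp), where 1.71% of all genes did, and 1 had all below (Lce1m), where 2.49% did. For Flg the ratio was 0.0815 ± 0.0181 in the controls and 0.168 ± 0.0126 in the cKO, 2.06-fold higher, and for Lce1m it was 0.271 ± 0.05 and 0.196 ± 0.0224 (SD, n = 3 each). Kprp was 1.18-fold higher. Genes within the sum separated the groups too. The ratios of Lce1a2, Lce1d and Lce1f had all cKO libraries above all controls, at 1.12 to 1.21-fold. Those of Lce1a1, Lce1h, Lce1j and Lce1l had all below, at 0.858 to 0.94-fold. A small difference can thus separate the groups on this scale. Lor, at 1.05 ± 0.299 and 1.16 ± 0.128, overlapped.

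The other S100-fused-type genes had overlapping groups. Rptn, repetin, a matrix protein of the envelope, was at 14.4, 2.01 and 16.4 CPM in the controls and at 100.4, 8.54 and 6.59 CPM in the cKO. Its value in cKO 1 was 6.14-fold above the next library and the other cKO libraries lay between the controls (1.82, SE 1.10; -0.53 without cKO 1). Tchh, trichohyalin, which hardens the inner root sheath of the hair follicle, was at 46.2, 18.1 and 7.74 CPM in the controls and at 59.4, 15.1 and 25.2 CPM in the cKO (0.47, SE 0.67; -0.25 without cKO 1). Krt71, a keratin of the inner root sheath, was at 38.2, 16.1 and 5.10 CPM and at 66.3, 13.0 and 23 CPM, with the libraries in the same order. The 7 inner root sheath markers summed to 82.2 to 161 CPM in the controls and 91.1 to 219 CPM in the cKO, with none at 0, and their part in the values of Tchh was not tested. Crnn, cornulin, was near the limit of detection, with 2 to 21 counts in the controls and 11 to 24 in the cKO. Hrnr, Rptn and Tchh overlap a lincRNA on the opposite strand, and whether counting used the strand is not stated in the labels or headers.

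**Figure D4:**
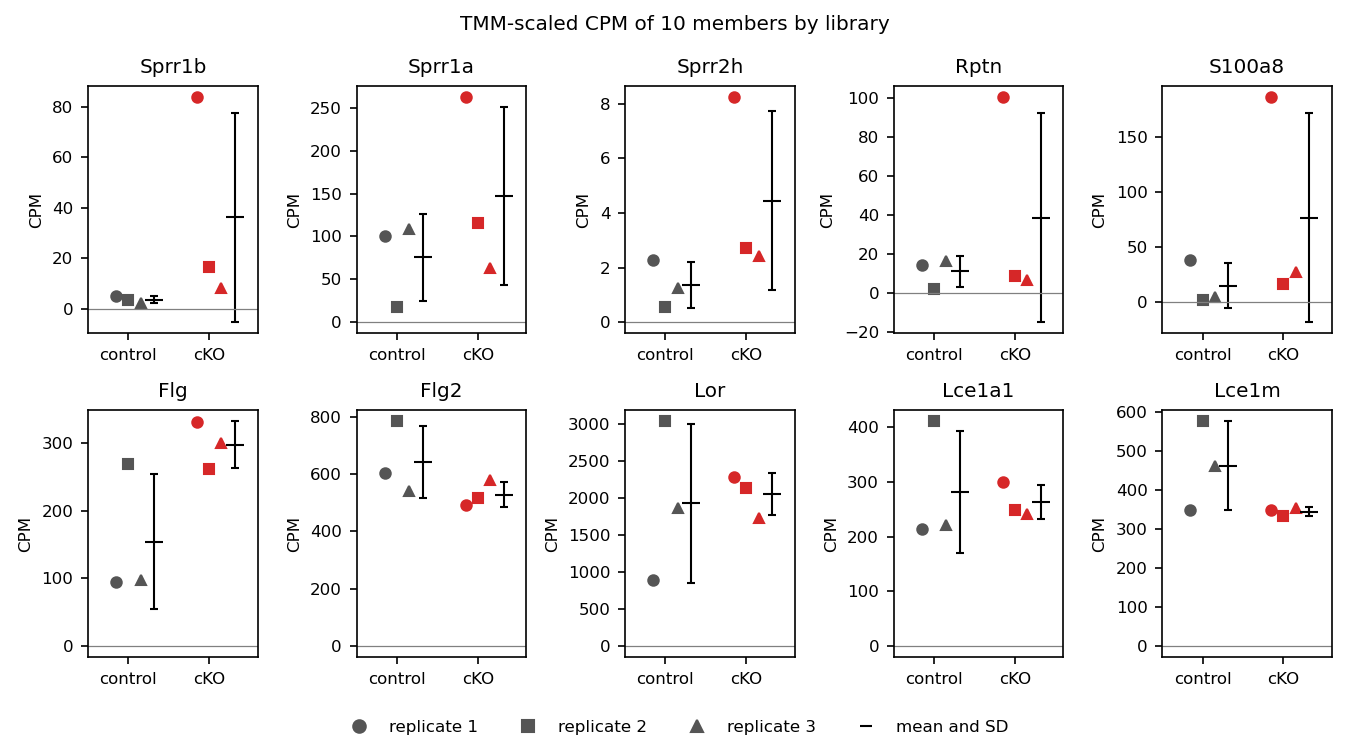
TMM-scaled CPM of 10 members in each library (grey, control; red, cKO; symbols mark the replicate number; black, mean and SD, n = 3, with some bars reaching below 0). Sprr1b, Sprr1a, Sprr2h, Rptn and S100a8 show cKO 1 above the rest, Flg shows controls 1 and 3 below the cKO, and Lor and Lce1a1 show controls spread around the cKO.

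The S100a genes lie in 2 blocks at the ends of the complex, 12 from 90511034 to 90695721 and 2 from 93520488 to 93564643. S100a8 and S100a9, the subunits of calprotectin, an alarmin and antimicrobial complex, had the largest fold changes among them. S100a8 was at 37.9, 1.54 and 4.01 CPM in the controls and at 186.0, 15.9 and 27.5 CPM in the cKO. S100a9 was at 30.9, 1.24 and 3.87 CPM in the controls and at 165.9, 20.2 and 26.5 CPM in the cKO. The ratio of S100a8 to S100a9 stayed between 0.784 and 1.25 in all 6 libraries, and control 1 lay above cKO 2 and cKO 3 in both. The log2 fold changes were 2.41 (SE 1.27) and 2.58 (SE 1.19), with adjusted p values of 0.970 and 0.941 in edgeR. Without cKO 1 they were 0.59 and 0.97, and without control 1 they were 4.76 and 4.77. Neutrophils also transcribe both genes. The 12 neutrophil markers summed to 5.2 to 13.2 CPM in the controls and to 68.3, 9.42 and 16.4 CPM in cKO 1 to 3. Of the 12, 4 passed the filter, 3 with a positive and 1 with a negative log2 fold change. All 4 had an unadjusted p under 0.05 in edgeR, where 3.38% of all genes were higher and 1.95% lower with one. Without cKO 1, 5 were tested, and 1 was higher and 1 lower with such a p. Cxcr2 was at 19.9 CPM in cKO 1 and 1.44 to 4.76 CPM elsewhere, and Mpo was below its control level in the cKO (0.824 to 1.37 against 0 to 0.167 CPM). Ly6g and Ngp were at 0 to 2 and 0 to 1 counts, with 0 in cKO 1. The part of neutrophils in the calprotectin values was not tested.

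The remaining S100a genes had log2 fold changes from -0.31 (S100a3) to 1.01 (S100a7a), and most were abundant. S100a6, calcyclin, was at 454.4, 356.6 and 393.2 CPM in the controls and at 383.3, 376.7 and 332.6 CPM in the cKO (-0.14, SE 0.16). S100a10, the partner of annexin A2, was at 244.5, 253.2 and 225.1 CPM and at 300.8, 264.0 and 257.2 CPM, all cKO above all controls by a small margin (0.19, SE 0.14; adjusted p = 0.997, edgeR). S100a11, which passes calcium signals in keratinocytes, was at 172.8, 228.5 and 164.8 CPM and at 270.7, 202.0 and 251.8 CPM (0.36, SE 0.18). Its groups overlapped through control 2 and cKO 2. S100a4, a gene of fibroblasts and immune cells more than of keratinocytes, was at 31.9, 16.8 and 34.8 CPM and at 38.7, 37.6 and 41.1 CPM (0.49, SE 0.25; 0.23 without control 2). The summed fibroblast markers were lowest in control 2 and highest in control 1, and their part in the S100a4 values was not tested. S100a14 and S100a16, both epithelial, had log2 fold changes of 0.04 (SE 0.28) and 0.18 (SE 0.19). Of the words of S100a4 and S100a11, 47.4% and 41.1% occur in transcripts of genes that are not members, and another gene model overlaps S100a4, so their counts are uncertain.

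Of the 13 members that were not tested, 7 were Sprr genes, 3 Lce3 genes and 2 S100a genes, and the last was Tchhl1. Sprr3, known from oral and oesophageal epithelium, had 0 counts in all libraries. The highest count of any of the 13 was 70, for Lce3e in cKO 1. Among the 12 with at least 1 count, cKO 1 was the highest library for 11. Sprr2e had 63 counts in cKO 1 and 3 to 7 elsewhere, Tchhl1 52 and 2 to 7, and Lce3b 53 and 0 to 16.

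Genes that act on the products or control the transcription of the complex were counted from lists. Of the 4 transglutaminases that cross-link envelope proteins, 0 had an unadjusted p under 0.05 (median 0.27). Of 34 transcription regulators, among them Klf4, Grhl3, Trp63 and Jun and Fos genes, 17 were positive and 17 negative (median -0.01), with 1 at an unadjusted p under 0.05. That was Satb1, a chromatin organizer of keratinocytes, which was at 25.8, 24.3 and 20.4 CPM in the controls and at 16.7, 14.5 and 16.6 CPM in the cKO (-0.56, SE 0.16; adjusted p = 0.763, edgeR). All 18 measured genes of filaggrin processing were positive (median 0.31), where 47.8% of all genes tested were. Of the 18, 5 had an unadjusted p under 0.05, where 3.38% of all genes were higher with one. Without cKO 1, 13 of the 18 were positive and 0 had such a p. Blmh, the peptidase that degrades filaggrin to free amino acids, was at 111.2, 102.8 and 101.2 CPM in the controls and at 171.9, 123.4 and 129.2 CPM in the cKO, without overlap (0.43, SE 0.16; adjusted p = 0.857, edgeR). The deiminase Padi4 and the protease Klk6 had log2 fold changes of 1.41 (SE 0.46) and 1.73 (SE 0.64).

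Of 18 cornified proteins encoded elsewhere, 12 were positive (median 0.27), where 47.8% of all genes tested were. At an unadjusted p under 0.05 in edgeR, 4 were higher and 1 lower, where 3.38% and 1.95% of all genes were. Stfa2 and Stfa3, stefin protease inhibitors, were at 2.99 (SE 0.95) and 2.37 (SE 0.85), and Cdsn, corneodesmosin, at 0.74 (SE 0.26). Without cKO 1, 0 were positive with such a p and 1 was negative with one. Of 15 tested genes of a list of other genes of the region, 8 were positive (median 0.18), but 1 of the 15, S100pbp, lies on chromosome 4. Pglyrp3, a peptidoglycan recognition gene on chromosome 3 (92014583 to 92031582), was at 1.91, 2.11 and 2.12 CPM in the controls and at 6.62, 3.94 and 3.97 CPM in the cKO, without overlap (1.24, SE 0.30; adjusted p = 0.625, edgeR). The 4 receptors of S100 proteins had a median of -0.28 and 5 of their intracellular targets one of 0.21, with 0 at an unadjusted p under 0.05. No gene of these lists was called by edgeR or DESeq2.

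The wound keratins, like the Sprr genes, were highest in cKO 1. Krt16 was at 14.3, 6.69 and 3.16 CPM in the controls and at 357.8, 51.8 and 40.3 CPM in the cKO, and the 4 keratins had a median log2 fold change of 3.30, which was 1.77 without cKO 1. Summed Sprr levels came to 129.1, 25.1 and 127.0 CPM in the controls and to 449.8, 149.4 and 104.1 CPM in the cKO. Control 2 was thus lowest in Sprr sum and highest in Lor and Lce1, and cKO 1 was highest in Sprr sum and in wound keratins. Their part in each other's values was not tested.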

How the data were processed

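Total RNA of ear skin (3 µg per sample, TRIzol, NEBNext Ultra kit, per the labels' protocols) was sequenced in 6 libraries. The submitters' processing notes name HISAT2, HTSeq and mm10 but no settings. Per the file headers, the authors deposited raw counts of each gene and FPKM values. Also deposited were a normalized signal (mean count) per group, log2 fold changes and p-values of a test that is not named. Of these, adjusted p-values are quoted for 1 gene.

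Counts of 17318 genes that passed filterByExpr (99.83% to 99.86% of counts) were scaled by TMM and tested two-sided in edgeR 4.0.16 (R 4.3.3; robust quasi-likelihood test, no covariates). P-values were adjusted by Benjamini-Hochberg across these genes, and 0.05 was the threshold. SE is the log2 fold change over the root of F. Alternatives were RLE and total count scaling, 2 other filters, DESeq2 1.42.0, limma-voom (limma 3.58.1) with quality weights, the replicate number as a block, and leaving out each library. The edgeR and DESeq2 fits were tested on simulated counts. Words of 50 bases were compared with GENCODE M21 transcripts, and promoters were taken from RefSeq (GRCm38.p6).

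Members and lists were chosen with earlier results of these data known. Genes are named by rule: all tested S100-fused-type genes, Ivl, Lor and Kprp, in the S100a, Sprr and Lce families the 4 with the highest mean CPM and the 4 with the smallest p, and from each list up to 3 with the smallest p. Other members named, and the within-library ratios, were chosen after their values were seen. No 2 libraries were alike within counting error.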

Additional observations from a re-analysis of the deposited data

How the results depend on the processing

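All counts below are at an adjusted p under 0.05. In edgeR, 0 members were called under RLE scaling, total count scaling and both other filters, and 0 in DESeq2 and limma-voom with all libraries. Leaving out each library gave 0 to 1 members higher in edgeR (Flg, without control 2) and 0 to 2 in DESeq2 (S100a8 and S100a9 without control 1, Flg without control 2, Sprr2a1 and Sprr2a3 without cKO 2, Sprr1b and Lce3d without cKO 3), with 0 to 1 lower (Lce1m, without control 1). These DESeq2 fits were chosen after seeing the data, and over all 17318 genes they called 186, 90, 139 and 28 higher in that order, with 67 lower without control 1. Over all genes, edgeR called 2 higher and 1 lower. These counts were 18 and 7 without the filter, 67 and 24 in DESeq2, 29 and 10 in limma-voom, and 0 to 2 each without 1 library.

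The replicate numbers did not pair the samples: deviations of same-numbered libraries correlated at 0.203, -0.0705 and -0.0356. With the replicate block edgeR called 2 members (S100a8 and S100a9) and 10 genes higher and 2 lower in all, and Lce1b was at 0.03.

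Without 1 library the median log2 fold changes ran from 0.00 to 0.49 over all members, -0.13 to 0.87 for the S100-fused-type genes (1.28 in limma-voom), 0.00 to 0.55 for Ivl, Lor and Kprp, 0.59 to 2.34 for Sprr, -0.14 to 0.45 for Lce, -0.25 to 0.37 for Lce1 (0.25 in limma-voom, 0.03 with the replicate block) and 0.46 to 2.27 for Lce3. The edgeR filter was applied anew without each library, so the genes behind these medians can differ. Of 44 named genes 31 kept their direction under all alternatives. In limma-voom Lce1a1, Lce1c and Lce1b were at 0.22, 0.22 and 0.31. Without 1 library the log2 fold change ran from -0.20 to 0.39 for S100a14, -0.17 to 1.05 for Crnn, -0.09 to 0.28 for Hrnr, -0.53 to 2.32 for Rptn, -0.25 to 1.36 for Tchh, -0.26 to 0.57 for Lor, -0.23 to 0.28 for Ivl, -0.16 to 1.27 for Sprr4, -0.27 to 0.28 for Lce1a1, -0.31 to 0.35 for Lce1c, -0.24 to 0.37 for Lce1b, -0.14 to 0.79 for Lce3c and -0.13 to 1.69 for Krt71. The cause was not tested. Members with few counts, such as Crnn and most Sprr2 and Lce3 genes, are limited by depth.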
